A study of Mus musculus with 34 samples.

Results

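The 9 genes described here belong to the integrated stress response and were followed in mouse liver over 6 groups of genotype and time after partial hepatectomy (PHx). They are Eif2ak3, Atf4, Atf3, Ddit3, Ppp1r15a, Trib3, Asns, Sesn2 and Fgf21, chosen by symbol and with no measured value in the rule, and they make up 9 of the 78298 genes in the count table and 9 of the 14980 genes tested. The study deleted sirtuin 1 in the intestine and asked how the liver regenerates without it, and polyA RNA of whole liver was sequenced. SIRT1intKO mice carried Villin-Cre, a transgene active in the intestinal epithelium, together with floxed exon 4 of Sirt1. The controls, called WT, carried loxP-flanked Sirt1 without Cre, so the floxed alleles were shared by all 6 groups. All mice were males of 8 to 12 weeks on the C57/Bl6 background. In the 6 h and 24 h groups 70% of the liver had been removed by resecting the left lateral and median lobes, and the 0 h groups were untreated mice, with no sham operation.

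There were 6 WT and 6 SIRT1intKO livers at 0 h, 6 and 5 at 6 h, and 4 and 7 at 24 h, 34 libraries in all. Total counts per library ran from 14892122 to 23480492 with a median of 16807340. By group the lowest, median and highest totals were 15191477, 16185229 and 18400084 in WT and 14934069, 15138019 and 16442345 in SIRT1intKO at 0 h. At 6 h they were 14892122, 17181066.5 and 18007092 in WT and 15041590, 16979271 and 18039701 in SIRT1intKO. At 24 h they were 16335963, 18118473 and 19561395 in WT and 16302184, 17695667 and 23480492 in SIRT1intKO. Genes of the mitochondrial genome took 7.31% to 9.02% of the counts at 0 h, 5.15% to 7.13% at 6 h and 4.51% to 7.82% at 24 h. Levels are given in CPM, counts relative to library size after TMM normalization, which scales each library by its composition.

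Some 24 h livers stood apart from the rest of their group. On the first principal component of the 1000 most variable genes, which held 51.1% of the variance, the 0 h livers lay between -57.2 and -33.9 and the 6 h livers between 6.50 and 25.6. WT 24 h livers 1 and 2 lay at 60.0 and 58.7, but WT 24 h livers 3 and 4 lay at -0.446 and -7.97, between the 0 h and the 6 h livers. In the SIRT1intKO 24 h group liver 5 lay at 9.66, inside the range of the 6 h livers, and the other 6 lay between 34.7 and 52.7. The change of each member in WT from 0 h to 24 h, and the list counts in that comparison, are therefore also given without livers 1 and 2 and without livers 3 and 4, a choice made after seeing the data.

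Sirt1 itself was read first, since it defines the genotypes. The lowest, median and highest Sirt1 levels were 8.35, 12.1 and 15.7 CPM in WT and 9.48, 10.8 and 16.3 CPM in SIRT1intKO at 0 h, and 8.85, 11.2 and 14.05 CPM in WT at 6 h. The 5 SIRT1intKO livers at 6 h had 15.6, 7.96, 7.55, 10.3 and 10.2 CPM, and the 4 WT livers at 24 h had 23.1, 11.3, 8.80 and 11.2 CPM. SIRT1intKO livers at 24 h ran from 6.92 through a median of 7.87 to 13.5 CPM. The genotypes overlapped at each time, and the log2 difference at 24 h was -0.65 (edgeR adjusted p = 0.0726). Since Cre was active in the intestine and liver was sequenced, liver Sirt1 does not check the genotype labels.

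The integrated stress response is a pathway by which cells slow the start of most protein synthesis when they meet stress. Kinases such as PERK, encoded by Eif2ak3 and activated by unfolded proteins in the endoplasmic reticulum, and GCN2, activated by lack of amino acids, phosphorylate the initiation factor eIF2, and the mRNA of the transcription factor ATF4 is then translated more rather than less. ATF4 and its partners ATF3 and CHOP switch on genes for amino acid synthesis and transport, feedback regulators that restore translation, and, in hepatocytes, the secreted hormone FGF21. ATF4 is controlled largely through translation and PERK through phosphorylation, so mRNA levels do not read the activity of either.

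A gene was called where its adjusted p (edgeR quasi-likelihood test, Benjamini-Hochberg over all tested genes) was under 0.05 and its absolute log2 fold change was over 1. In WT livers at 6 h against 0 h, 2 of 9 members, Asns and Fgf21, were called higher, while 7.17% of all tested genes were called higher and 8.4% lower. In SIRT1intKO livers at 6 h, 4 members, Atf3, Asns, Fgf21 and Eif2ak3, were called higher, beside 7.86% of all genes higher and 8.7% lower. At 24 h against 0 h the count was 3 in WT (Atf3, Asns and Eif2ak3), beside 8.32% of all genes higher and 7.4% lower. In SIRT1intKO livers at 24 h it was 6 (Atf3, Eif2ak3, Trib3, Asns, Sesn2 and Fgf21), beside 11.9% higher and 11.1% lower. With 1 library left out the WT count at 24 h ran from 2 to 5, and it was 5 without WT 24 h liver 3. The shares of all tested genes in those fits are not given here, so these counts are not set against them. The median log2 fold change of the 9 members in these 4 comparisons was 0.39, 0.89, 1.11 and 1.14, and that of all tested genes was 0.02, 0.01, 0.02 and 0.04. The comparisons within a genotype share their 0 h livers, and each is given with its own values.

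Between the later times, 1 member, Atf3, was called higher in WT livers at 24 h against 6 h, beside 4.44% of all genes higher and 2.72% lower, and 2 members, Fgf21 and Trib3, were called higher in SIRT1intKO livers, beside 6.7% higher and 3.91% lower. The WT count was 0 without WT 24 h liver 1, and the SIRT1intKO count was 1 without SIRT1intKO 6 h liver 2 or 4 or SIRT1intKO 24 h liver 1 or 2. For these fits too the shares of all tested genes are not given here. The 9 members had a median log2 fold change of 0.38 and 0.50 in these comparisons, against 0.01 and -0.01 for all tested genes. In none of the 11 comparisons did edgeR call a member lower. The 1 member value below 0 with an unadjusted p under 0.05 was that of Fgf21 in WT livers at 24 h against 6 h, and the members that DESeq2 called were all higher as well.

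**Figure D1:**
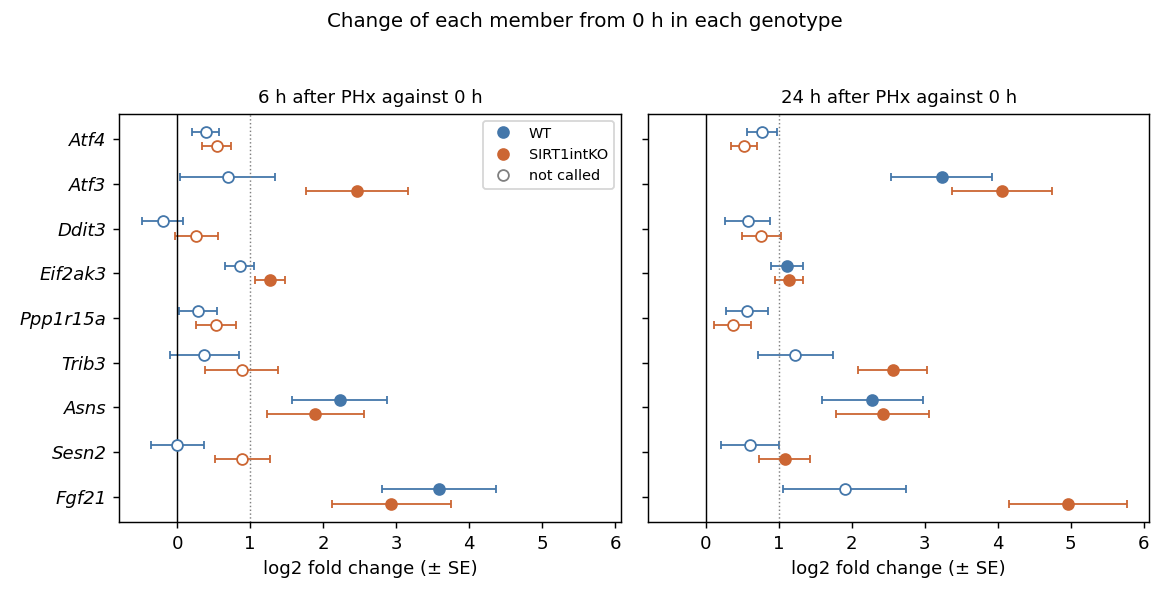
Log2 fold change from 0 h (x axis, points with SE) of each of the 9 genes (y axis) at 6 h and at 24 h after PHx, in WT (blue) and SIRT1intKO (orange) livers, with open points for genes not called and a dotted line at a log2 fold change of 1. At 24 h Fgf21 reached 4.96 in SIRT1intKO and 1.90 in WT, where it was not called, while Eif2ak3 reached 1.14 and 1.11.

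These counts carry limits that hold for each result on time after PHx. With no sham operation, and with 0 h libraries whose numbers form a series of their own, handling, time of day, fasting, anaesthesia and library series cannot be told apart from PHx. In bulk tissue fewer cells of a type and less RNA per cell cannot be told apart either. The p-values measure the spread between livers, which the labels give as biological replicates. The study named Atf3 and Eif2ak3 from these same libraries at 6 h, so their calls here are not independent evidence.

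The promoters of 6 members are shown: the 4 in which either of the motifs described next was found, which are Atf3, Ppp1r15a, Asns and Fgf21, and those of Trib3 and Sesn2, the pair with the highest correlation from liver to liver, in which neither was found. All 9 members matched 1 entry each in the RefSeq promoter table for GRCm38.p6, and the 250 bases upstream of the annotated start are printed 5′ to 3′ on the strand of the gene. Capitals mark matches on either strand to TGATGNAA, the C/EBP-ATF composite element through which ATF4 is known to bind, or to ACGTCA, the core of the cAMP response element bound by ATF and CREB proteins. The windows lie at chr1:191183334-191183583 (minus strand, Atf3), chr7:45526269-45526518 (minus, Ppp1r15a), chr6:7693210-7693459 (minus, Asns), chr7:45615491-45615740 (minus, Fgf21), chr2:152344061-152344310 (minus, Trib3) and chr4:132510457-132510706 (minus, Sesn2).
Atf3: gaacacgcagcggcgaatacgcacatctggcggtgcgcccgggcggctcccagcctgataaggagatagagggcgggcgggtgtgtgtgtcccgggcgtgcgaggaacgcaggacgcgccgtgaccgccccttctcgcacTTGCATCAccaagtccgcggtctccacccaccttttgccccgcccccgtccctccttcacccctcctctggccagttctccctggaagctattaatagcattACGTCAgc
Ppp1r15a: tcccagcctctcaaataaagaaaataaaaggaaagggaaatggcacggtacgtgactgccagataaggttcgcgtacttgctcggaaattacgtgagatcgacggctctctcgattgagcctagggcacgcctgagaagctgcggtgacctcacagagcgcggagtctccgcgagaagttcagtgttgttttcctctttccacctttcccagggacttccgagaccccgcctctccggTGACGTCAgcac
Asns: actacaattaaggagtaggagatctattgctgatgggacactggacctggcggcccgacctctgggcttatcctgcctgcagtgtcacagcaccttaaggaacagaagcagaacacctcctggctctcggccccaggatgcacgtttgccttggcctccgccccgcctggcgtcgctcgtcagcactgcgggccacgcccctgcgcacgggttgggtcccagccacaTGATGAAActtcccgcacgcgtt
Fgf21: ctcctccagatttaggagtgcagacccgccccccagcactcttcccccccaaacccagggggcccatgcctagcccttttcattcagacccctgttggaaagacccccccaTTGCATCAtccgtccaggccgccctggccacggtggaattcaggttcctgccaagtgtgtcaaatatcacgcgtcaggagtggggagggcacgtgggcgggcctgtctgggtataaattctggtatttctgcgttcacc
Trib3: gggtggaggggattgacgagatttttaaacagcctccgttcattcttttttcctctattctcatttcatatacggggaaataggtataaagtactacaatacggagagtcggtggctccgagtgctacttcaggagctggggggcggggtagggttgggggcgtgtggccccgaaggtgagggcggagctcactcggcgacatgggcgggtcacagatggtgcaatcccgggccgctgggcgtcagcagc
Sesn2: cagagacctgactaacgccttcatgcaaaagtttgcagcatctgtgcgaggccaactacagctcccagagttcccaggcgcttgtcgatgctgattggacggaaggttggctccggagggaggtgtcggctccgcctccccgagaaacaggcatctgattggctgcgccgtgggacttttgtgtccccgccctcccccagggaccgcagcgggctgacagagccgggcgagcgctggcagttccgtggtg

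TGATGNAA was found in 3 of 9 members and in 1134 of 32851 promoters of this length (3.45%). The matches lay 110 to 103 bases before the start of Atf3 and 139 to 132 before that of Fgf21, both on the opposite strand as TTGCATCA, and 23 to 16 bases before that of Asns. ACGTCA was found in 2 of 9 members and in 2125 promoters (6.47%), at 8 to 3 bases before the start of Atf3 and as a palindrome of 2 overlapping matches, 12 to 7 and 10 to 5 bases before the start, in Ppp1r15a. CCAAT, not marked above, was found in 4 of 9 members and in 11120 promoters (33.8%), with 6 matches in Eif2ak3, 2 each in Sesn2 and Atf4 and 1 in Ddit3. The Trib3 and Sesn2 windows held none of the capitalized letters, which describes these 250 bases alone.

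Among the sensors, Eif2ak3 encodes PERK, the eIF2 kinase of the endoplasmic reticulum. Its lowest, median and highest levels were 6.79, 11.5 and 14.5 CPM in WT and 7.60, 10.1 and 12.8 CPM in SIRT1intKO livers at 0 h, and 15.6, 19.1 and 24.9 CPM in WT livers at 6 h. The 5 SIRT1intKO livers at 6 h had 16.3, 26.6, 23.8, 29.3 and 27.1 CPM. All 6 WT and all 5 SIRT1intKO livers at 6 h lay above every 0 h liver of their genotype, with the ranges of the genotypes overlapping. At 24 h the 4 WT livers had 33.6, 27.1, 19.4 and 14.3 CPM, and the SIRT1intKO livers ran from 15.8 through 20.9 to 28.4 CPM. Here 3 of 4 WT and 7 of 7 SIRT1intKO livers lay above their 0 h group, and WT liver 4 fell within it. Ordered by median the groups ran SIRT1intKO 0 h, WT 0 h, WT 6 h, SIRT1intKO 24 h, WT 24 h and SIRT1intKO 6 h, and the 1 pair of neighbours that did not overlap was WT 0 h and WT 6 h.

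Eif2ak3 rose in SIRT1intKO livers at 6 h by 1.27 in log2 fold change (SE 0.21, edgeR adjusted p = 1.90e-05). The WT change at 6 h was 0.86 (SE 0.20, edgeR adjusted p = 0.00102), past the p threshold and short of the fold threshold. The difference between these changes was 0.41 (SE 0.29, edgeR interaction adjusted p = 1.00), so the call in a single genotype is not a difference between genotypes. At 24 h Eif2ak3 rose by 1.11 (SE 0.22, edgeR adjusted p = 0.000260) in WT and by 1.14 (SE 0.19, adjusted p = 1.84e-05) in SIRT1intKO livers. The WT value was 0.90 without WT 24 h liver 1 and 0.63 without livers 1 and 2, below the fold threshold in both, and 1.48 without livers 3 and 4. When edgeR tested against a log2 fold change of 1 in place of 0 (glmTreat), none of the 3 Eif2ak3 calls was kept, and adjusted p was 0.335 at 6 h in SIRT1intKO, 0.882 at 24 h in WT and 0.480 at 24 h in SIRT1intKO, the highest over the 12 other settings.

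Atf4 encodes the transcription factor at the centre of the pathway. The lowest, median and highest levels of its mRNA were 99.8, 112 and 134 CPM in WT and 92.5, 114 and 136 CPM in SIRT1intKO at 0 h, and 136, 140.2 and 168 CPM in WT at 6 h. SIRT1intKO livers at 6 h had 143, 189, 149, 175 and 166 CPM. Within each genotype all livers at 6 h lay above all livers at 0 h. The 4 WT livers at 24 h had 255, 307, 109 and 102 CPM, so that livers 1 and 2 were above every other liver of the series and livers 3 and 4 were inside the 0 h range. SIRT1intKO livers at 24 h ran from 103 through 155 to 215 CPM, and 6 of 7 lay above their 0 h group. By median the order was WT 0 h, SIRT1intKO 0 h, WT 6 h, SIRT1intKO 24 h, SIRT1intKO 6 h and WT 24 h, and all neighbours overlapped.

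Atf4 was not called in any of the 11 comparisons. In SIRT1intKO livers at 6 h its log2 fold change was 0.54 (SE 0.20, edgeR adjusted p = 0.0303), and at 24 h it was 0.77 (SE 0.21, adjusted p = 0.00534) in WT and 0.52 (SE 0.18, adjusted p = 0.0186) in SIRT1intKO, each past the p threshold and short of the fold threshold. The WT value at 6 h was 0.39 (SE 0.19, edgeR adjusted p = 0.109). Without WT 24 h livers 1 and 2 the WT value at 24 h was -0.10, and without livers 3 and 4 it was 1.33 and Atf4 was called.

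Atf3 encodes a stress-induced transcription factor that ATF4 is known to induce and that is also an early gene of the regenerating liver. The lowest, median and highest levels were 0.721, 1.46 and 5.36 CPM in WT and 0.729, 1.46 and 1.86 CPM in SIRT1intKO at 0 h, and 1.90, 3.09 and 6.04 CPM in WT at 6 h. SIRT1intKO livers at 6 h had 0.898, 11.6, 13.3, 4.98 and 5.93 CPM. Thus 4 of 5 SIRT1intKO livers lay above every 0 h liver of their genotype and liver 1 lay among them, while 1 of 6 WT livers lay above the WT 0 h range. The top of that WT range was set by WT 0 h liver 2 alone, at 5.36 CPM, with the next WT 0 h liver at 2.58 CPM. Above the median of their own 0 h group lay 6 of 6 WT and 4 of 5 SIRT1intKO livers. At 24 h the WT livers had 54.8, 22.4, 1.83 and 1.99 CPM, and the SIRT1intKO livers ran from 5.07 through 19.5 to 40.1 CPM. WT livers 1 and 2 lay above the median of the SIRT1intKO livers and livers 3 and 4 were in the 0 h range, while 7 of 7 SIRT1intKO livers lay above their 0 h group. By median the order was SIRT1intKO 0 h, WT 0 h, WT 6 h, SIRT1intKO 6 h, WT 24 h and SIRT1intKO 24 h, with every neighbour overlapping the next.

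At 6 h Atf3 rose in SIRT1intKO livers by 2.46 in log2 fold change (SE 0.70, edgeR adjusted p = 0.00569), and the WT value was 0.69 (SE 0.65, adjusted p = 0.428). With 1 library left out the WT value ran from 0.44 to 1.23 and was not called in any fit. The interaction was 1.77 (SE 0.95, edgeR unadjusted p = 0.0719, adjusted p = 1.00) and the direct difference between genotypes at 6 h was 1.08 (SE 0.65, adjusted p = 0.780), so a difference between genotypes was not detected. With glmTreat the 6 h call was lost (edgeR adjusted p = 0.0986, the highest over the 12 other settings). At 24 h Atf3 rose by 4.05 (SE 0.69, edgeR adjusted p = 1.72e-05) in SIRT1intKO and by 3.23 (SE 0.69, adjusted p = 0.000664) in WT livers, and in WT it rose by 2.54 (SE 0.67, adjusted p = 0.00947) from 6 h to 24 h. The WT change from 0 h was 2.05 without liver 1 and still called, -0.17 without livers 1 and 2, and 4.17 without livers 3 and 4. The WT change from 6 h was 1.36 without liver 1, not called, and -0.86 without livers 1 and 2, and its call was also lost with glmTreat, with a replicate block and in a fit to these groups alone.

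Ddit3 encodes CHOP, the transcription factor of prolonged stress. Its group medians lay between 6.97 CPM in WT livers at 6 h and 11.6 CPM in WT livers at 24 h, and all neighbours in the order of medians overlapped. The 4 WT livers at 24 h had 11.6, 19.8, 11.5 and 8.51 CPM, and SIRT1intKO livers at 24 h ran from 6.74 through 9.46 to 26.5 CPM, the highest in liver 6. In SIRT1intKO livers at 24 h the log2 fold change from 0 h was 0.76 (SE 0.27, edgeR adjusted p = 0.0199), short of the fold threshold, and Ddit3 was called in 0 of 11 comparisons. With 1 library left out this SIRT1intKO value of Ddit3 ran from 0.49 to 0.85, with edgeR adjusted p from 0.0103 to 0.0907. Its WT value at 24 h was 0.57 (SE 0.31, edgeR adjusted p = 0.147), 0.22 without livers 1 and 2 and 0.88 without livers 3 and 4. At an unadjusted p under 0.05 stood 2 of its values, that of SIRT1intKO at 24 h from 0 h and the WT change from 6 h to 24 h, 0.77 (edgeR unadjusted p = 0.0168).

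**Figure D2:**
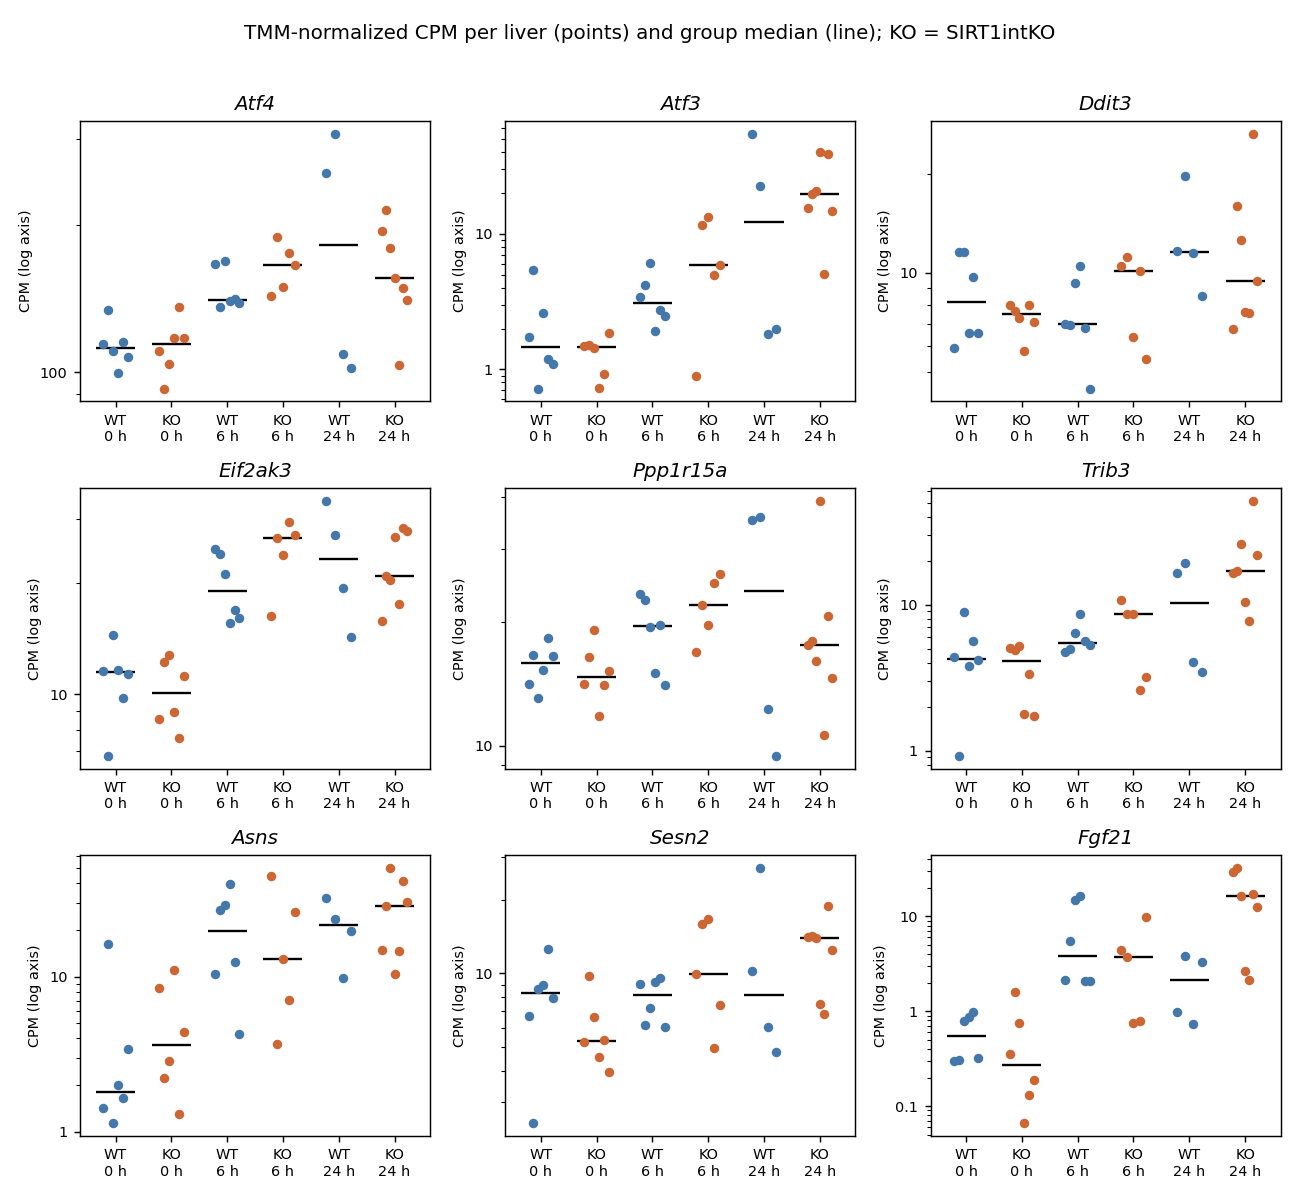
TMM-normalized CPM (log y axis) of the 9 genes in each of 34 livers (points) by genotype and time (x axis), with the group median as a line. In the WT 24 h group Atf4, Atf3, Ppp1r15a and Trib3 split into livers 1 and 2, above every WT 0 h liver, and livers 3 and 4, which lay within the WT 0 h range or, for Ppp1r15a, below it. Ddit3 split in the same way by a narrow margin.

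The pathway also makes its own brakes. Ppp1r15a encodes GADD34, the phosphatase subunit that returns eIF2 to its active form. Its 0 h livers lay between 11.8 and 19.1 CPM over both genotypes, WT livers at 6 h ran from 14.01 through 19.5 to 23.3 CPM, and SIRT1intKO livers at 6 h had 16.9, 21.9, 19.6, 24.8 and 26.1 CPM. At 24 h the WT livers had 35.2, 35.9, 12.3 and 9.46 CPM, with livers 1 and 2 above and livers 3 and 4 below every WT 0 h liver. SIRT1intKO livers at 24 h ran from 10.6 through 17.5 to 39.2 CPM, with liver 4 far above the other 6. Ppp1r15a was called in 0 of 11 comparisons by edgeR and by DESeq2, and had an unadjusted p under 0.05 in 0 of them. Its WT change at 24 h was 0.57 (SE 0.29, edgeR adjusted p = 0.124), which became -0.52 without livers 1 and 2 and 1.20, called, without livers 3 and 4.

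Trib3 encodes a pseudokinase that binds ATF4 and CHOP and dampens their activity. Its lowest, median and highest levels were 0.919, 4.26 and 8.89 CPM in WT and 1.74, 4.10 and 5.25 CPM in SIRT1intKO at 0 h, and 4.74, 5.45 and 8.59 CPM in WT at 6 h. SIRT1intKO livers at 6 h had 10.8, 8.66, 8.68, 2.61 and 3.17 CPM, with livers 1 to 3 above and livers 4 and 5 inside the 0 h range. WT livers at 24 h had 16.5, 19.4, 4.03 and 3.43 CPM, the same split as for Atf4. SIRT1intKO livers at 24 h ran from 7.79 through 17.02 to 51.7 CPM, and 7 of 7 lay above their 0 h group. By median the order was SIRT1intKO 0 h, WT 0 h, WT 6 h, SIRT1intKO 6 h, WT 24 h and SIRT1intKO 24 h, and all neighbours overlapped.

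At 24 h Trib3 rose in SIRT1intKO livers by 2.56 in log2 fold change from 0 h (SE 0.48, edgeR adjusted p = 5.83e-05) and by 1.68 from 6 h (SE 0.49, adjusted p = 0.0105). The WT value from 0 h was 1.23 (SE 0.51, edgeR adjusted p = 0.0608) and was not called. It was called by DESeq2 (1.23), and without WT 0 h liver 3 (1.52), WT 24 h liver 3 (1.52), WT 24 h liver 4 (1.53) or SIRT1intKO 24 h liver 6 (1.26), while without WT 24 h livers 1 and 2 it was -0.30 and without livers 3 and 4 it was 1.97, called. The interaction at 24 h was 1.33 (SE 0.69, edgeR adjusted p = 0.422) and the difference between genotypes 1.01 (SE 0.51, adjusted p = 0.224), and both passed the threshold without WT 24 h livers 1 and 2, at 2.86 and 2.54. Over the 12 other settings they ran from 0.57 to 2.86 and from 0.25 to 2.54, with no further call. With 1 library left out they ran from 0.96 to 1.76 and from 0.64 to 1.44, and neither was called. With glmTreat the change from 6 h was not called (edgeR adjusted p = 0.454, the highest over the 12 other settings).

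Among the metabolic targets, Asns encodes asparagine synthetase, a classic target of ATF4 when amino acids are short. Its lowest, median and highest levels were 1.14, 1.82 and 16.2 CPM in WT and 1.31, 3.64 and 11.1 CPM in SIRT1intKO at 0 h, and 4.28, 19.6 and 39.4 CPM in WT at 6 h. SIRT1intKO livers at 6 h had 44.3, 3.66, 12.96, 7.10 and 25.9 CPM. WT liver 2 at 0 h, at 16.2 CPM, lay among the 6 h livers, and SIRT1intKO livers 2 and 4 at 6 h lay among the 0 h livers. At 24 h the WT livers had 32.3, 23.4, 9.79 and 19.6 CPM and the SIRT1intKO livers ran from 10.4 through 28.7 to 50.1 CPM, so that unlike Atf4 and Trib3 the WT livers did not split by pairs. From lowest to highest median the groups were WT 0 h, SIRT1intKO 0 h, SIRT1intKO 6 h, WT 6 h, WT 24 h and SIRT1intKO 24 h, and all neighbours overlapped.

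Asns was the 1 member called in all 4 comparisons with 0 h. It rose by 2.22 in log2 fold change (SE 0.65, edgeR adjusted p = 0.00743) in WT and 1.89 (SE 0.66, adjusted p = 0.0237) in SIRT1intKO livers at 6 h, and by 2.28 (SE 0.69, adjusted p = 0.0113) and 2.43 (SE 0.64, adjusted p = 0.00217) at 24 h. In the same order 6 of 6, 5 of 5, 4 of 4 and 7 of 7 livers lay above the median of their 0 h group, and 3, 3, 3 and 6 lay above its highest liver. Without WT 0 h liver 2 the WT values were 3.41 at 6 h and 3.47 at 24 h. The SIRT1intKO call at 6 h was lost without SIRT1intKO 0 h liver 2 (1.71) or 5 (1.67) or SIRT1intKO 6 h liver 1 (1.26) or 5 (1.72), with adjusted p from 0.00952 to 0.139 over the 34 libraries left out in turn. Without WT 24 h livers 1 and 2 the WT change at 24 h was 1.74 and not called, and without livers 3 and 4 it was 2.68. With glmTreat the calls at 6 h and the WT call at 24 h were lost, while that in SIRT1intKO at 24 h was kept.

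Sesn2 encodes sestrin 2, a leucine-binding inhibitor of mTORC1 induced by ATF4 and by p53. Its lowest, median and highest levels were 2.45, 8.30 and 12.6 CPM in WT and 3.97, 5.32 and 9.79 CPM in SIRT1intKO at 0 h, and 6.07, 8.13 and 9.60 CPM in WT at 6 h. SIRT1intKO livers at 6 h had 9.94, 15.99, 16.7, 4.98 and 7.43 CPM. At 24 h WT livers had 10.2, 26.97, 6.07 and 4.78 CPM, with liver 2 alone above the WT 0 h range, and SIRT1intKO livers ran from 6.80 through 13.9 to 18.8 CPM, with 5 of 7 above their 0 h group. Sesn2 rose in SIRT1intKO livers at 24 h by 1.08 in log2 fold change (SE 0.35, edgeR adjusted p = 0.0113). That value was 0.99 or 1.00, just under the fold threshold, without SIRT1intKO 0 h liver 4 or 6 or SIRT1intKO 24 h liver 6, and it was not called with glmTreat. In SIRT1intKO livers at 6 h Sesn2 stood at 0.89 and was not called (edgeR adjusted p = 0.0606), but was called without SIRT1intKO 0 h liver 2 (1.05) or SIRT1intKO 6 h liver 4 (1.04). The WT value at 24 h was 0.61 (SE 0.39, edgeR adjusted p = 0.238), -0.17 without WT 24 h liver 2, -0.53 without livers 1 and 2 and 1.26, called, without livers 3 and 4, and the interaction was 0.47 (SE 0.53, adjusted p = 0.739). By median the order was SIRT1intKO 0 h, WT 6 h, WT 24 h, WT 0 h, SIRT1intKO 6 h and SIRT1intKO 24 h, with all neighbours overlapping.

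Fgf21 encodes a hormone that the liver secretes under fasting and amino acid stress, and it is a target of PPARalpha as well as of ATF4. Its lowest, median and highest levels at 0 h were 0.298, 0.551 and 0.990 CPM in WT and 0.0663, 0.271 and 1.58 CPM in SIRT1intKO, with as few as 5 and 1 counts in a library. WT livers at 6 h ran from 2.09 through 3.84 to 16.2 CPM, and SIRT1intKO livers at 6 h had 4.43, 3.73, 0.755, 0.789 and 9.88 CPM. All 6 WT livers lay above the WT 0 h range, and 3 of 5 SIRT1intKO livers lay above theirs, with livers 3 and 4 inside it. At 24 h the WT livers had 0.984, 3.83, 0.733 and 3.34 CPM, and the 7 SIRT1intKO livers had 29.3, 32.4, 16.5, 2.66, 2.16, 17.01 and 12.6 CPM. In SIRT1intKO 5 of 7 livers lay above every WT liver and livers 4 and 5 overlapped with WT livers 2 and 4. By median the order was SIRT1intKO 0 h, WT 0 h, WT 24 h, SIRT1intKO 6 h, WT 6 h and SIRT1intKO 24 h, and all neighbours overlapped.

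At 6 h Fgf21 rose by 3.59 in log2 fold change (SE 0.78, edgeR adjusted p = 0.000511) in WT and 2.93 (SE 0.82, adjusted p = 0.00525) in SIRT1intKO livers. At 24 h it rose in SIRT1intKO by 4.96 from 0 h (SE 0.80, edgeR adjusted p = 9.55e-06) and by 2.03 from 6 h (SE 0.70, adjusted p = 0.0293). The WT values at 24 h were 1.90 from 0 h (SE 0.84, edgeR adjusted p = 0.0785) and -1.68 from 6 h (SE 0.78, adjusted p = 0.142), neither called. The change from 0 h in WT was called without WT 24 h liver 3 (2.21) and where edgeR was fitted to these 2 groups alone (1.91), and it was not called without livers 1 and 2 (1.78) or without livers 3 and 4 (2.04). The SIRT1intKO change from 6 h was lost without SIRT1intKO 6 h liver 2 (2.03), 3 (1.76) or 4 (1.78) or SIRT1intKO 24 h liver 1 (1.83) or 2 (1.79), with a replicate block (2.16), with glmTreat and in a fit to these groups alone (2.05). With glmTreat the SIRT1intKO call at 6 h was lost too (edgeR adjusted p = 0.0708, the highest over the 11 other settings that kept the gene).

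Between the genotypes, 0 of 9 members were called at 0 h and 0 at 6 h by edgeR, beside 0 and 0% of all tested genes. At both times 0 members had an unadjusted p under 0.05 and DESeq2 called 0 members, while over all tested genes 161 and 976 had such a p and DESeq2 called 6 and 9. The median log2 difference of the members, SIRT1intKO minus WT, was -0.21 at 0 h and 0.20 at 6 h, beside -0.01 and 0.01 for all tested genes. At 24 h 1 of 9 members, Fgf21, was called higher in SIRT1intKO livers, beside 1.38% of all genes higher and 1.3% lower, and the median was 0.07 beside -0.02. The Fgf21 difference was 2.85 (SE 0.80, edgeR adjusted p = 0.0329), with overlapping groups. It was not called without WT 24 h liver 1 (2.58) or 3 (2.53) or SIRT1intKO 24 h liver 1 (2.61), 2 (2.57) or 6 (2.85), without WT livers 1 and 2 (2.96) or 3 and 4 (2.69), with a replicate block (3.15), with glmTreat or in a fit to these groups alone (2.84). The shares of all genes called with the block, with glmTreat and in that fit are not given here. The Fgf21 call was kept without WT livers 3 and 4 and SIRT1intKO liver 5 together, beside 4.89% of all genes higher and 3.29% lower. The log2 difference thus stayed between 2.53 and 3.23 over the left-out libraries, and adjusted p ran from 0.0102 to 0.0804 over them and from 0.00886 to 0.613 over the other settings.

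The interaction, the difference between the genotypes in the change from 0 h, was called by edgeR for 0 of 9 members at 6 h and 0 at 24 h, beside 0 and 0.00668% of all tested genes, the latter a single gene. Over all genes 457 and 1904 had an unadjusted p under 0.05, and DESeq2 called 2 and 90. Among the members 0 had such a p at 6 h and 1, Fgf21, at 24 h, with an interaction of 3.06 (SE 1.18, unadjusted p = 0.0145, edgeR adjusted p = 0.274), and DESeq2 called 0 members at both times. Without WT 24 h livers 1 and 2, both Atf3 and Trib3 were called in the interaction at 24 h and in the difference between genotypes at 24 h, beside 2.87% of all genes higher and 2.39% lower in the former and 5.13% and 4.09% in the latter. Without livers 3 and 4 the count of members was 0 in both. The shares of all genes were then 2.18% higher and 1.98% lower in the interaction and 4.46% and 3.84% in the difference. The members that were called from 0 h to 24 h in SIRT1intKO and not in WT, which were Trib3, Sesn2 and Fgf21, are therefore not shown to differ between the genotypes in that change.

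**Figure D3:**
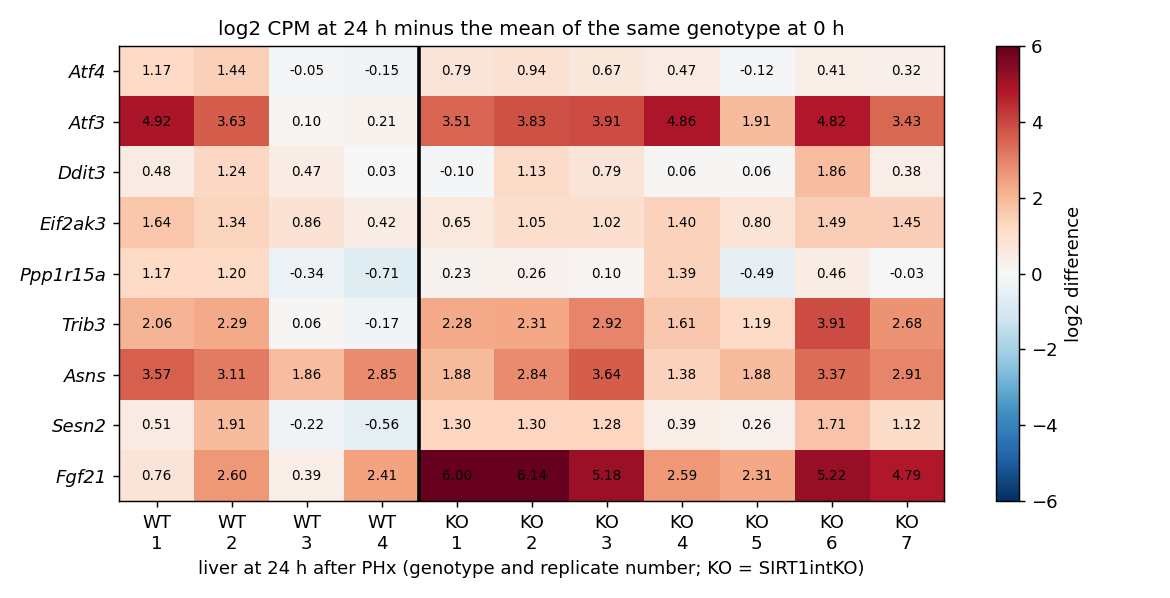
Log2 CPM of each gene (y axis) in each 24 h liver (x axis, genotype and replicate number) minus the mean of the same genotype at 0 h, as colour and number. Atf3 stood 4.92 and 3.63 above the 0 h mean in WT livers 1 and 2 and 0.10 and 0.21 above it in livers 3 and 4, while Fgf21 stood 2.31 to 6.14 above it in the SIRT1intKO livers.

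For 5 of 9 members, Atf4, Atf3, Ddit3, Ppp1r15a and Trib3, the WT 24 h group split into livers 1 and 2, which lay above every WT 0 h liver, and livers 3 and 4, which did not. For Ddit3 the margin was narrow, with livers 1 and 3 at 11.62 and 11.52 CPM and the highest WT 0 h liver at 11.54 CPM. In livers 1 and 2 the log2 difference from the WT 0 h mean was 1.17 and 1.44 for Atf4, 2.06 and 2.29 for Trib3 and 1.17 and 1.20 for Ppp1r15a. In livers 3 and 4 it was -0.05 and -0.15, 0.06 and -0.17, and -0.34 and -0.71 for the same genes. The other 4 members did not split this way. Asns stood above the 0 h mean in all 4 livers, at 3.57, 3.11, 1.86 and 2.85, as did Eif2ak3, at 1.64, 1.34, 0.86 and 0.42. Fgf21 stood highest in livers 2 and 4, at 2.60 and 2.41, and for Sesn2 liver 2 alone lay above the WT 0 h range. With livers 1 and 2 left out, 0 of 9 members were called in WT at 24 h against 0 h, beside 1.505% of all tested genes higher and 1.80% lower, and with livers 3 and 4 left out 7 were, all but Ddit3 and Fgf21, beside 14.01% higher and 16.6% lower. The number of calls over all genes thus moved with these livers too. Liver 5 of the SIRT1intKO group was the lowest of its 7 for Atf4, Atf3, Ppp1r15a, Trib3, Sesn2 and Fgf21. The labels give no reason for the split, and what set these livers apart was not tested. Whether each liver was operated on and labelled as stated was not tested. In WT 24 h livers 3 and 4 summed hepatocyte markers were 38704 and 45465 CPM, below the lowest 0 h liver at 66605 CPM. Their summed neutrophil markers, at 14.2 and 7.91 CPM, lay within the WT 0 h range of 6.79 to 23.02 CPM. The WT group sizes that the study states for its sequencing differ from those of the labels at both times after PHx. Each WT 24 h value therefore holds only as far as all 4 livers are what their labels state. The same limit applies to each WT 6 h value and the livers labelled WT 6 h.

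Lists of other genes known to act in the pathway were counted in the same 4 comparisons with 0 h, in which 7.17%, 7.86%, 8.32% and 11.9% of all tested genes were called higher and 8.4%, 8.7%, 7.4% and 11.1% lower. Of 12 listed enzymes of amino acid synthesis and one-carbon metabolism 11 were tested, and 4 were called higher in WT and 6 in SIRT1intKO at 6 h, then 5 in WT and 7 in SIRT1intKO at 24 h, with 1 called lower, in SIRT1intKO at 24 h. Their median log2 fold changes were 0.92, 1.31, 1.09 and 2.42. Psat1, an enzyme of serine synthesis, had 24.2, 55.7, 1.26 and 1.39 CPM in the 4 WT livers at 24 h, against at most 0.919 CPM at 0 h. In SIRT1intKO livers at 24 h it had 16.8, 37.2, 36.7, 16.05, 8.82, 60.3 and 33.4 CPM, against at most 0.435 CPM at 0 h. It rose by 5.12 (SE 0.81, edgeR adjusted p = 2.24e-05) in WT and 6.71 (SE 0.86, adjusted p = 3.29e-07) in SIRT1intKO livers, and without WT livers 1 and 2 the WT value was 1.18 and not called. All 4 WT livers at 24 h lay above every WT 0 h liver, livers 3 and 4 by far less than livers 1 and 2. Phgdh, the enzyme before it, rose by 3.27 in WT (edgeR adjusted p = 0.00281) and 4.69 in SIRT1intKO livers (adjusted p = 2.83e-05), and its WT value was 1.82 without WT 24 h liver 2 and 1.37 without livers 1 and 2, not called in either. Without WT 24 h livers 1 and 2, edgeR called 0 of the 11 enzymes in WT at 24 h, beside 1.505% of all tested genes higher and 1.80% lower, and without livers 3 and 4 it called 5 higher and 1 lower, beside 14.01% and 16.6%.

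Of 9 listed amino acid transporters 8 were tested, and 0 in WT and 2 in SIRT1intKO were called higher at 6 h and 4 and 5 at 24 h, with median log2 fold changes of 0.54, 0.81, 0.96 and 1.14. Slc7a1, which carries cationic amino acids, rose at 24 h by 1.84 in WT (edgeR adjusted p = 0.00876) and by 2.64 in SIRT1intKO livers (adjusted p = 8.77e-05), and the WT call was lost without WT 24 h liver 1 (1.54) or 2 (1.42), without both (0.22) and with glmTreat. Of 20 cytosolic aminoacyl-tRNA synthetases 0, 1, 1 and 1 were called higher, with medians of 0.31, 0.48, 0.19 and 0.37. A further list of 20 genes held the other eIF2 kinases, eIF2, eIF2B and genes such as Gcn1, Dnajc3, Oma1, Ppp1ca and Ppp1r15b. Its counts called higher were 0, 0, 1 and 0, and its medians 0.26, 0.27, 0.12 and 0.10. The 1 gene of this list to be called was Eif2ak4, which encodes GCN2, in WT livers at 24 h. With 0 or 1 of 20 genes called, neither of these 2 lists had a larger share called higher than all tested genes did when all livers were kept. Of 24 other genes of the ATF4 and CHOP axis 1, 4, 7 and 8 were called higher and 4, 2, 0 and 1 lower, with medians of 0.05, 0.09, 0.44 and 0.50. Tnfrsf10b, which encodes a death receptor induced by CHOP, rose at 24 h by 3.48 in WT (edgeR adjusted p = 5.39e-05) and by 3.06 in SIRT1intKO livers (adjusted p = 4.53e-05), and its WT value was 1.23 and not called without WT livers 1 and 2. In WT at 24 h, edgeR called 0 transporters, 0 synthetases, 0 genes of the eIF2 list and 0 of the ATF4 and CHOP axis without livers 1 and 2, and 6, 3, 3 and 10 higher without livers 3 and 4, with 1 lower in the eIF2 list. The shares of all tested genes called higher in these 2 fits were 1.505% and 14.01%, so the synthetases and the eIF2 list, at 3 of 20 each, stood near the latter.

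**Figure D4:**
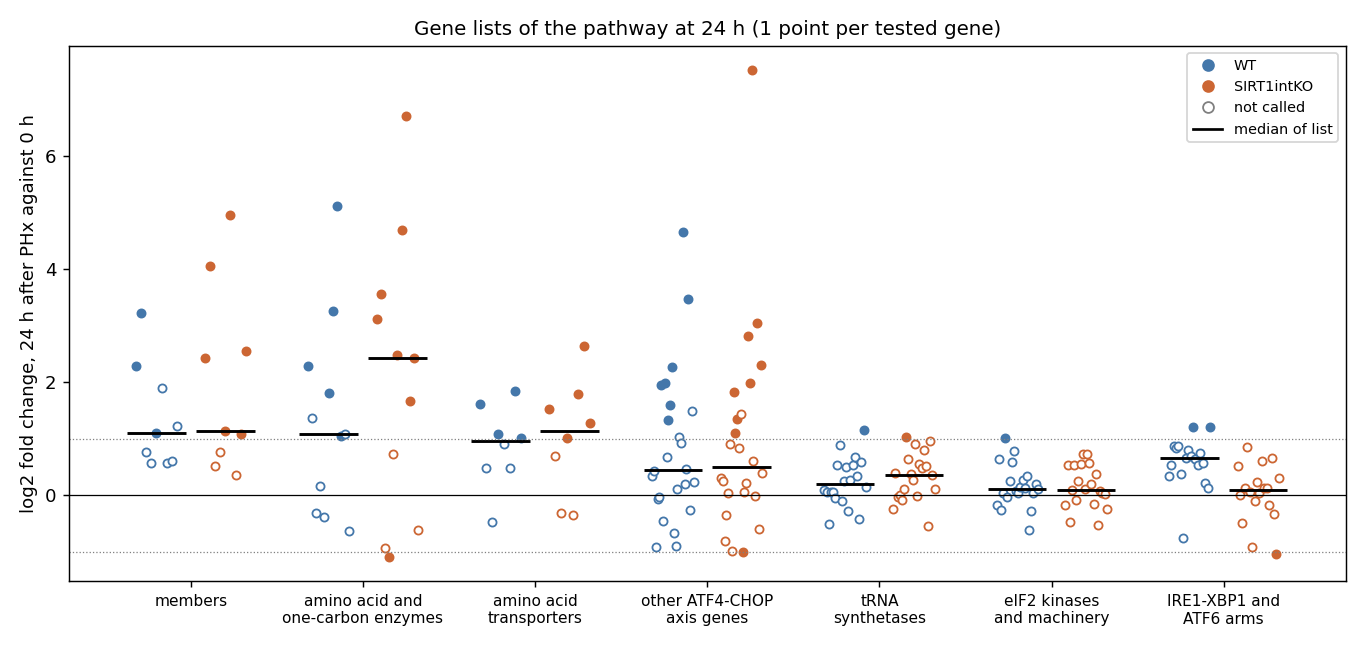
Log2 fold change at 24 h against 0 h (y axis) of each tested gene of 7 lists (x axis) in WT (blue) and SIRT1intKO (orange), with open points for genes not called, a line at the list median and dotted lines at log2 fold changes of 1 and -1. The enzyme list had a median of 1.09 in WT and 2.42 in SIRT1intKO, and the list of eIF2 kinases and machinery 0.12 and 0.10.

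Between the genotypes at 24 h, 1 enzyme was called higher and 1 lower in SIRT1intKO livers, and the same held for the transporters, beside 1.38% of all tested genes higher and 1.3% lower. Without WT livers 1 and 2 edgeR called 5 enzymes higher and 2 lower and 4 transporters higher, beside 5.13% and 4.09% of all genes, and without livers 3 and 4 it called 2 enzymes higher and 1 lower and 1 transporter lower, beside 4.46% and 3.84%. Gpt2, an alanine transaminase, was higher by 1.08 (SE 0.25, edgeR adjusted p = 0.0132), a call lost without WT 24 h liver 2 (0.86), SIRT1intKO 24 h liver 1 (0.96) or WT livers 1 and 2 (0.94). Got1, an aspartate transaminase, was lower, at -1.60 (SE 0.40, edgeR adjusted p = 0.0199), a call lost without WT 24 h liver 2 (-1.29) and with a replicate block (-1.55). Slc6a9, a glycine transporter, was higher by 1.38 (SE 0.38, edgeR adjusted p = 0.0286), a call lost without WT 24 h liver 3 (1.16) or 4 (1.18) or SIRT1intKO 24 h liver 1 (1.20), with a replicate block (1.43) and without WT livers 3 and 4 (0.83). Slc43a1, a transporter of large neutral amino acids, was lower, at -1.40 (SE 0.31, edgeR adjusted p = 0.0106), a call lost without WT 24 h liver 1 (-0.83) and without WT livers 1 and 2 (-0.43). In a fit to these 2 groups alone, and with glmTreat, none of the 4 was called. The shares of all tested genes called in these fits are not given here, so this loss does not set the 4 apart from other genes.

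Stress programmes next to the pathway were counted the same way, in the order WT 6 h, SIRT1intKO 6 h, WT 24 h and SIRT1intKO 24 h, each against 0 h, beside 7.17%, 7.86%, 8.32% and 11.9% of all tested genes higher and 8.4%, 8.7%, 7.4% and 11.1% lower. Of 18 genes of the IRE1-XBP1 and ATF6 arms of the unfolded protein response 2, 1, 2 and 0 were called higher and 1, 1, 0 and 1 lower, with medians of 0.37, 0.32, 0.66 and 0.09. Of 15 PPARalpha targets, the regulator that Fgf21 shares, 7, 6, 3 and 5 were called higher and 0, 0, 1 and 1 lower, with medians of 1.03, 0.88, -0.35 and 0.36. Of 12 AP-1 and immediate-early genes 1, 3, 4 and 4 were called higher and 3, 0, 0 and 0 lower, and of 8 NRF2 targets 1, 3, 3 and 4 higher and 2, 0, 0 and 0 lower. Of 11 p53 targets 10 were tested and 1, 1, 1 and 2 were called higher. Between the genotypes at 24 h 0 of the PPARalpha, p53, IRE1-XBP1 and ATF6 genes were called by edgeR, while 3 AP-1 and immediate-early genes were called lower and 2 NRF2 targets higher in SIRT1intKO livers, beside 1.38% of all genes higher and 1.3% lower. These counts changed with the WT 24 h livers kept. Without livers 1 and 2, edgeR called 4 AP-1 and immediate-early genes and 3 NRF2 targets higher, and 2 PPARalpha targets higher and 1 lower, beside 5.13% and 4.09% of all genes. Without livers 3 and 4 it called 5 AP-1 and immediate-early genes, 2 p53 targets and 1 gene of the IRE1-XBP1 and ATF6 arms lower, and 3 PPARalpha targets and 1 NRF2 target higher, beside 3.84% of all genes lower and 4.46% higher. In WT at 24 h against 0 h, edgeR called higher 0 of the IRE1-XBP1 and ATF6, 1 of the PPARalpha, 0 of the AP-1, 0 of the NRF2 and 0 of the p53 genes without livers 1 and 2, beside 1.505% of all genes, and 4, 2, 8, 3 and 3 without livers 3 and 4, beside 14.01%, with 3 PPARalpha targets lower, beside 16.6%.

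Markers of cell types were counted as well, at 24 h against 0 h, where 8.32% of all tested genes were called higher and 7.4% lower in WT, and 11.9% and 11.1% in SIRT1intKO livers. The WT shares were 1.505% and 1.80% without WT livers 1 and 2 and 14.01% and 16.6% without livers 3 and 4, and they stand beside all marker counts below. Of 8 neutrophil markers 7 were tested, and 4 in WT and 7 in SIRT1intKO livers were called higher. The WT count was 0 by edgeR without livers 1 and 2 and 6 without livers 3 and 4. Their summed level was 120.4, 101, 14.2 and 7.91 CPM in the 4 WT livers at 24 h and 96.1, 959, 211, 125, 23.4, 99.0 and 61.0 CPM in the 7 SIRT1intKO livers. At 0 h it ran from 6.79 to 23.02 CPM in WT and from 4.27 to 21.3 CPM in SIRT1intKO livers, and at 6 h from 5.74 to 59.6 and from 9.22 to 17.1 CPM. WT livers 1 and 2 were thus high and livers 3 and 4 at the 0 h level, the split seen for Atf4, Atf3 and Trib3. S100a9 was the most abundant of these markers, and none was at 0 in all libraries.

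Of 8 monocyte and macrophage markers, all tested, 4 were called higher and 2 lower in WT (1 and 1 without WT livers 1 and 2, 4 and 2 without livers 3 and 4) and 5 higher in SIRT1intKO livers at 24 h, with summed levels of 126, 80.9, 55.6 and 46.5 CPM in the WT livers and 144, 369, 152, 168, 59.4, 311 and 157 CPM in the SIRT1intKO livers, and with Lyz2 the most abundant. At 0 h their sum ran from 56.6 to 95.6 CPM in WT and from 60.6 to 132 CPM in SIRT1intKO livers. At 6 h it ran from 39.7 to 96.6 CPM in WT and from 32.4 to 46.5 CPM in SIRT1intKO livers. The 8 hepatocyte markers, led by Alb, had 4 called lower in WT (1 without WT livers 1 and 2, 5 without livers 3 and 4) and 3 in SIRT1intKO livers. They summed to between 66605 and 92126 CPM at 0 h, to 33365, 35532, 38704 and 45465 CPM in the WT livers at 24 h, and to 74893, 74445, 58118, 54667, 41410.0, 37937 and 45844 CPM in the SIRT1intKO livers. At 6 h the hepatocyte markers summed to between 39413 and 76517 CPM in WT and between 55743 and 70189 CPM in SIRT1intKO livers. The part of any cell type in the changes of the members was not tested.

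Kupffer cell, sinusoidal endothelial, stellate and red blood cell markers were all tested, 6, 6, 6 and 5 of them, and 0, 0, 0 and 0 in WT and 1, 1, 1 and 1 in SIRT1intKO livers were called higher at 24 h against 0 h, with 3, 4, 1 and 1 and 1, 4, 1 and 1 called lower. Without WT livers 1 and 2 the WT counts were 0, 0, 1 and 0 higher and 1, 0, 0 and 0 lower, and without livers 3 and 4 they were 0, 1, 0 and 0 higher and 4, 4, 2 and 1 lower. Of 5 cholangiocyte markers 3 were called higher in each genotype (0 in WT without livers 1 and 2, 3 without livers 3 and 4). Of 7 lymphocyte markers 1 was tested and of 6 markers of intestinal epithelium 2 were, and 2 of the latter were at 0 in all libraries. The lymphocyte marker was called lower in both genotypes (not in WT without livers 1 and 2), and of the intestinal markers 0 in WT (1 lower without livers 3 and 4) and 1, higher, in SIRT1intKO livers were called.

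Other sums also differed between the same WT 24 h livers. The cholangiocyte sum was led by Spp1, with a mean of 73.4 CPM over all libraries. Fabp2 led the intestinal epithelial sum, with a mean of 55.3 CPM, while 3 of those 6 markers averaged under 0.1 CPM. A sum led by 1 gene does not measure the content of a cell type. In WT 24 h livers 1 to 4 cholangiocyte markers summed to 482, 264, 64.5 and 78.8 CPM, against 36.6 to 61.9 CPM in WT at 0 h, and sinusoidal endothelial markers to 32.9, 39.5, 82.8 and 68.3 CPM, against 90.2 to 144 CPM. Stellate cell markers summed to 109, 107, 167 and 173 CPM, against 127 to 181 CPM, and intestinal epithelial markers to 32.2, 37.4, 69.6 and 77.9 CPM, against 53.8 to 60.7 CPM. Kupffer cell markers, at 123, 28.5, 119.7 and 91.8 CPM against 85.3 to 204 CPM, and red blood cell markers, at 360.4, 837, 269.8 and 279.8 CPM against 375 to 1123 CPM, had livers 1 and 2 far apart from each other. Lymphocyte markers summed to 0.369, 0.229, 1.78 and 0.548 CPM, against 2.16 to 2.80 CPM.

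The members were also compared from liver to liver within groups. After the mean of each group was removed from log2 CPM, Pearson's r over 34 livers was above 0.5 for 6 of 36 member pairs (16.7%), against 4.19% of all pairs of tested genes, and the medians were 0.29 and -0.00. These correlations are descriptions, with no test. Trib3 and Sesn2 had the highest value, r = 0.84 (rho = 0.73, r = 0.80 without the 2 farthest livers), with 0.84, 0.76 and 0.88 within the 0 h, 6 h and 24 h livers (at the lowest 0.60, 0.58 and 0.85 with each liver left out in turn). The other 5 pairs above 0.5 linked Atf4, Atf3, Ppp1r15a and Eif2ak3. Atf3 and Ppp1r15a had r = 0.76 (rho = 0.67, and 0.73 without the 2 farthest livers), with 0.39, 0.46 and 0.91 within the 3 times. Atf4 had r = 0.67 with Ppp1r15a (rho = 0.43, and 0.51), with -0.26, 0.54 and 0.77, and r = 0.66 with Atf3 (rho = 0.41, and 0.60), with 0.11, 0.51 and 0.82. Eif2ak3 had r = 0.62 with Ppp1r15a (rho = 0.62, and 0.61), with 0.09, 0.89 and 0.76, and r = 0.51 with Atf3 (rho = 0.47, and 0.36), with -0.39, 0.69 and 0.82. With each liver left out in turn, an alternative chosen after seeing the data, these 5 pairs ran from 0.65 to 0.96 at 24 h, from 0.14 to 0.94 at 6 h and from -0.53 to 0.53 at 0 h. Without SIRT1intKO 6 h liver 1 the 6 h values of Atf3 were 0.14 with Ppp1r15a, 0.25 with Atf4 and 0.325 with Eif2ak3, and without WT 0 h liver 2 the 0 h values of Atf3 were -0.44 with Atf4 and 0.18 with Eif2ak3. The 24 h livers include the WT livers that split. Leaving out 1 liver at a time keeps part of that split, so these 24 h ranges cannot show r without it.

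For Asns r ran from -0.20 to 0.30 with the other 8 over 34 livers, and the values differed by time. Within the 0 h livers r was -0.73 with Trib3 and -0.73 with Sesn2, and with each liver left out in turn it ran from -0.86 to -0.42 and from -0.83 to -0.38, nearest to 0 without WT 0 h liver 2, where Asns stood far above its group. With Ddit3 and Fgf21 the 0 h values were 0.08 and -0.41. Within the 6 h livers r was 0.23 with Trib3, -0.06 with Sesn2, 0.25 with Ddit3 and 0.63 with Fgf21. With each liver left out these 6 h values ran from -0.02 to 0.49, -0.34 to 0.24, -0.07 to 0.54 and 0.56 to 0.83. Within the 24 h livers r was 0.76 with Trib3, 0.56 with Sesn2, 0.63 with Ddit3 and 0.53 with Fgf21. With each liver left out the 24 h values ran from 0.71 to 0.85, 0.49 to 0.71, 0.57 to 0.69 and 0.35 to 0.71.

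**Figure D5:**
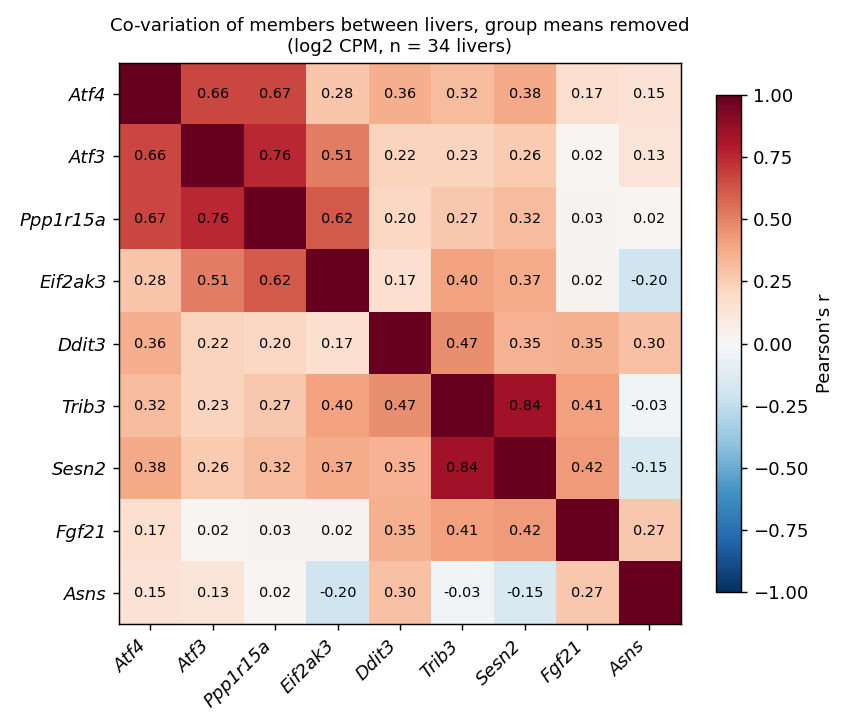
Pearson's r of log2 CPM after removal of the group means (colour and number) for each pair of the 9 genes (both axes) over 34 livers. Atf4, Atf3 and Ppp1r15a lie between 0.66 and 0.76 with each other, and Trib3 with Sesn2 at 0.84.

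Over all 34 livers, with the differences between groups left in, the tested genes closest to each member were found by Pearson's r of log2 CPM. For Eif2ak3 they were Pak2 (r = 0.94), Yap1 (0.93) and Xpnpep1 (0.92), and for Atf4 they were Rassf1 (0.90), Rab4b (0.89) and Mrap (0.88). Atf3 was closest to Klf6 (0.95), Fosl1 (0.94) and Krt8 (0.94), and Ppp1r15a to Jun (0.84), Rassf1 (0.82) and Zzz3 (0.81). Rassf1 thus stood near both Atf4 and Ppp1r15a. Trib3 was closest to Sesn2 (0.84), Specc1l (0.83) and Dyrk3 (0.83), and Sesn2 to Trib3 (0.84), Acot5 (0.78) and Vasn (0.77). For Asns the nearest were Aig1 (0.85), Chpf (0.85) and Ttc39a (0.82), for Fgf21 Yif1a (0.88), Apoa4 (0.86) and Cgref1 (0.84), and for Ddit3 Blcap (0.71), Abcc5 (0.71) and Pck2 (0.70).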

How the data were processed

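PolyA RNA of whole liver was sequenced as stranded mRNA libraries. The deposited values are Salmon expected counts per gene, made by the authors with STAR and Salmon on GRCm39, whose versions the submitters' notes do not give, and 4.97% of them are not whole numbers. Of 35 library columns 1 matches no label and is not used here. Ddit3 had 2 entries in the table, of which 1 held 0 counts in all libraries and was left out. The deposited symbols lack the letter x, which was restored by gene identifier for 1316 genes, 705 of them tested.

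Counts were rounded, filtered with filterByExpr and normalized with TMM in edgeR 4.0.16 (R 4.3.3, limma 3.58.1), and a quasi-likelihood model with a mean for each of the 6 groups was fitted to 34 libraries. The coefficient of variation between livers, common to all genes, was 0.302. Log2 CPM used a prior count of 2. Interactions were contrasts of the same model. The depth of 14892122 to 23480492 counts per library left Fgf21 with as few as 1 count. The code was tested on simulated data. The alternatives were DESeq2 1.42.0, other normalizations, other filters (such as 10 counts in every library), other fold thresholds, a replicate block, fits to the compared groups alone and each library left out.

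The members and lists were chosen with earlier results of these data known. Named were all members, up to 4 called genes per list and comparison with the largest absolute log2 fold change and a mean of at least 1 CPM, and the 3 genes closest to each member. Promoters were those of RefSeq on GRCm38.p6, matched by symbol.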

Additional observations from a re-analysis of the deposited data

Results flagged for a closer look

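In 84 sets of values from 1 group each, the highest or lowest liver was compared with the others, and in 8 it stood apart by a gap that took up most of the range of the group. Chance alone would mark about 1 in 20 such sets if values were normally distributed. That rate was not checked for the untransformed CPM used here. Among the members these were Ppp1r15a in SIRT1intKO 24 h liver 4 (39.2 CPM), Trib3 in SIRT1intKO 24 h liver 6 (51.7 CPM) and Asns in WT 0 h liver 2 (16.2 CPM), each the highest of its group. Psat1 stood apart in WT 6 h liver 4 (4.97 CPM) and in SIRT1intKO 6 h liver 3 (27.6 CPM). The summed neutrophil markers stood apart in WT 6 h liver 6 (59.6 CPM) and in SIRT1intKO 24 h liver 2 (959 CPM), and the summed monocyte and macrophage markers in SIRT1intKO 6 h liver 5, at the low end (32.4 CPM). Why these livers differ was not tested.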

How the results depend on the processing

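Results were computed again under 12 other settings and with each of 34 libraries left out, for 68 gene values and 11 counts of called members. The settings that leave out WT 24 h livers 1 and 2, livers 3 and 4, or livers 3 and 4 with SIRT1intKO 24 h liver 5 were chosen after seeing the data. Of the gene values under planned settings 550 kept their direction and side of the threshold, 36 became weaker and 7 stronger, and with 1 library left out 2272 were kept, 32 became weaker, 7 stronger and 1 reversed. Under the added settings 172 were kept, 15 became weaker, 10 stronger and 7 reversed. The counts of called members are not in these tallies: 14 of 99 moved by over 1.5 times or to or from 0 under planned settings, 11 of 374 with 1 library left out and 9 of 33 under the added settings. With glmTreat, which tests against the fold threshold itself, the members called were 1 in WT at 6 h, 0 in SIRT1intKO at 6 h, 1 in WT at 24 h, 0 and 0 from 6 h to 24 h in WT and SIRT1intKO, and 0 between genotypes at 24 h. With at least 10 counts in every library, a filter that removes Fgf21, they were 1 in WT at 6 h and 0 between genotypes at 24 h. With the replicate number as a block they were 0 in WT and 1 in SIRT1intKO from 6 h to 24 h and 0 between genotypes at 24 h, and fits to the compared groups alone gave 0, 1 and 0. The shares of all tested genes called under these settings are not given here. These counts therefore do not show whether the members moved more or less than all genes. Replicate numbers share only a number: residuals of same-number pairs had a median r of -0.00364 (76 pairs), against 0.00607 for 403 other pairs. Without WT 24 h livers 1 and 2 the counts were 0 in WT from 0 h to 24 h and from 6 h to 24 h, and 2 between genotypes and 2 in the interaction at 24 h. Without livers 3 and 4 they were 7 and 4 in WT and 0 between genotypes. With SIRT1intKO liver 5 left out too they were 7, 4 and 1, the last being Fgf21. Between genotypes 4.89% of all tested genes were then called higher and 3.29% lower. In WT from 6 h to 24 h, 2.57% of all tested genes were called higher and 2.10% lower without livers 1 and 2. Without livers 3 and 4 these shares were 8.81% and 9.69%, and 8.72% and 10.3% with SIRT1intKO liver 5 left out too. From 0 h to 24 h, the WT shares without all of those livers were 14.5% higher and 16.4% lower. The other shares under the added settings stand with the results above. Reversed without WT 24 h livers 1 and 2 were the WT changes at 24 h from 0 h of Atf4 (-0.10), Atf3 (-0.17), Ppp1r15a (-0.52), Trib3 (-0.30), Sesn2 (-0.53) and Ddit4 (-0.95), and that of Atf3 from 6 h (-0.86). With 1 library left out the counts ran from 2 to 5 in WT at 24 h, 0 to 1 in WT and 1 to 3 in SIRT1intKO from 6 h to 24 h and 0 to 1 between genotypes at 24 h. The shares of all tested genes in those fits are not given here. In the same fits the Sesn2 change in WT at 24 h ran from -0.17 to 0.87. Beyond the filter that removes Fgf21, the cause was not tested. Depth limits Fgf21 and Psat1 at 0 h, where libraries held as few as 1 and 3 counts. Phgdh and Tnfrsf10b were low too, with means of 1.02 and 1.18 CPM over all libraries. Their WT changes at 24 h from 0 h were available under 10 of the 12 other settings.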
